A study of Danio rerio with 6 samples.

Results

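The transcript of *bnip3lb*, a zebrafish gene for a mitophagy receptor of the BNIP3 family, was measured in whole zebrafish embryos with and without a mutation of *vhl*. It was read by the zebrafish probes whose RefSeq accession, version ignored, is NM_205571, and 1 of 41031 probes, printed as 1 spot, met this rule. RefSeq (assembly GRCz12tu) places *bnip3lb* on chromosome 10. Its coordinates there are left out, since the array was designed on an earlier build, and the probe's position within the transcript is not given in the sources used here.

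Agilent one-colour arrays of 6 RNA samples were compared, 3 of wild-type embryos and 3 of *vhl* mutants, all of a TL/LWT mixed strain at 4 days post fertilisation (dpf). Each was of RNA from a separate pool of 30 whole embryos, which the labels call biological replicates. The titles number the wild-type replicates 2, 3 and 4 and the *vhl* mutant replicates 1, 3 and 4. The study's methods name the allele *vhl* hu2117, made homozygous by incrossing heterozygotes of a line that also carries the hypoxia reporter *phd3*::EGFP. Whether wild-type embryos came from the same crosses, and whether the arrayed embryos carried the reporter, is not given in the sources used here. No probe was named *vhl* here, so the genotype labels were not checked on the mutated gene itself. All wild-type arrays were on 1 slide and all *vhl* mutant arrays on another, so slide and genotype cannot be told apart in any comparison that follows.

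BNIP3L, also called NIX, is a protein of the outer mitochondrial membrane. Its cytosolic part holds a short motif that binds LC3 and GABARAP proteins on the forming autophagosome, so that a mitochondrion carrying it is taken up and degraded in the lysosome, a process named mitophagy. In mammals, NIX is needed for red blood cells to clear their mitochondria as they mature, and BNIP3 and BNIP3L are among the genes that the Hypoxia Inducible Factor (HIF) switches on. The *vhl* product marks the α subunit of HIF for degradation, and the comparison of the groups asks how the transcript stands when *vhl* is mutated. The study's authors also name roles of this product thought to be independent of HIF, which the comparison does not separate.

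The *bnip3lb* transcript was higher in *vhl* mutants, by 3.86-fold, and every *vhl* mutant array was above every wild-type array. The spot was bright on all arrays. Its median pixel brightness, as read from the scan, was 7056 in wild-type replicate 2, 6047 in replicate 3 and 6657 in replicate 4. In *vhl* mutants it was 17217 in replicate 1, 20504 in replicate 3 and 24054 in replicate 4. The dimmest *vhl* mutant spot was thus brighter than the brightest wild-type spot before any correction, and the ratio of the group means was 3.13 (6587 ± 508 SD against 20592 ± 3419 SD, n = 3 each).

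The glass around the spot was dark, and slightly darker on the *vhl* mutant arrays. Local background was 24, 26 and 28 in wild-type replicates 2, 3 and 4 and 21, 22 and 22 in *vhl* mutant replicates 1, 3 and 4, with no overlap, and the median local background of the whole array was 24.5 to 25 in wild-type and 20 to 21 in *vhl* mutants. The spot was 233 to 294 times its background in wild-type and 820 to 1093 times in *vhl* mutants. It was flagged as well above background on 6 of 6 arrays, and as saturated or as an outlier on 0 of 6. As a share of all zebrafish spot brightness on its array, it took 0.00549% to 0.00617% in wild-type and 0.0171% to 0.0214% in *vhl* mutants.

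After background correction and quantile normalisation, the log2 intensity of *bnip3lb* was 12.58, 12.46 and 12.55 in wild-type replicates 2, 3 and 4. In *vhl* mutant replicates 1, 3 and 4 it was 14.24, 14.58 and 14.62. The wild-type arrays lay within 0.13 of each other, and *vhl* mutant replicate 1 lay below the other two *vhl* mutant arrays, which were close together. The gap between the groups, from the highest wild-type to the lowest *vhl* mutant array, was 1.66, wider than the range of either group (the wider was 0.37).

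**Figure D1:**
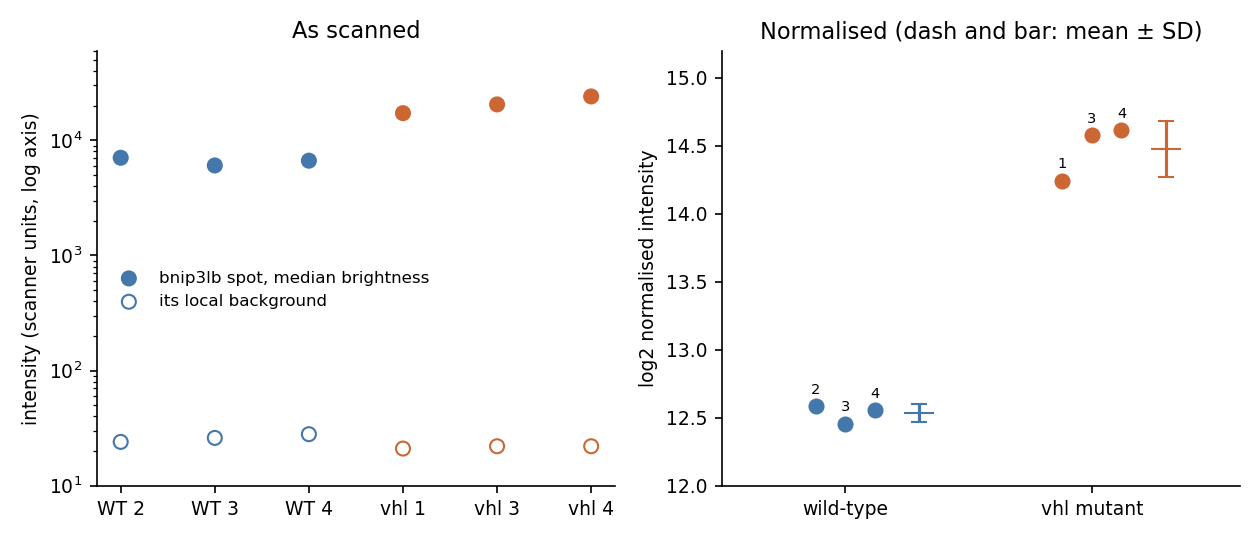
The *bnip3lb* spot on each array. Left, median brightness (filled) and local background (open) in scanner units on a log axis, for 3 wild-type (WT, blue) and 3 *vhl* mutant (orange) arrays; right, normalised log2 intensity, with the replicate number above each point and the mean ± SD as a dash and bar beside it. Signal rose from between 6047 and 7056 to between 17217 and 24054 while background stayed between 21 and 28.

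The mean of the 3 wild-type arrays was 12.53 ± 0.07 (SD) and that of the 3 *vhl* mutant arrays 14.48 ± 0.21 (SD). In a limma fit across all 41031 probes the log2 fold change was 1.95 (SE 0.11, 95% interval 1.67 to 2.22), with an adjusted p of 0.000668. On the linear scale the interval ran from 3.19-fold to 4.67-fold. Over the 9 pairs of a *vhl* mutant and a wild-type array, the fold ran from 3.16 (*vhl* replicate 1 over wild-type replicate 2) to 4.47 (*vhl* replicate 4 over wild-type replicate 3). An exact two-sided permutation test over the 6 arrays gave p = 0.1, the smallest that 3 against 3 allows.

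A probe was called at an adjusted p of 0.01 or less with at least a 2-fold change. Of all probes, 687 were called higher in *vhl* mutants (1.67%) and 635 lower (1.55%), and *bnip3lb* was among those called higher. Separation of the groups alone was common, since 21.4% of all probes had every *vhl* mutant array above every wild-type array. The call was lost under 3 of 24 alternative settings, of which the same fit with an unadjusted p limit could not lose it. Scaling to the E1A spike-in probes (the control RNA added to each sample) lowered the log2 fold change to 0.95 (limma adjusted p = 0.0490). Under that scaling limma gave the same SE (0.37) to *bnip3lb*, *ldha* and *calcoco1a*. Its adjusted p there thus does not measure the spread of *bnip3lb* itself. In whole embryos, more cells that express *bnip3lb* and more of its RNA per cell cannot be told apart.

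Among all 41031 probes ordered by signed log2 fold change, from the most increased down, *bnip3lb* stood 199th, within the top 0.485%. By size of change in either direction it stood 320th, and by unadjusted p of the limma fit 103rd. Among the 687 probes called higher its change was 157th. Among the 24255 probes well above background on all 6 arrays it stood 171st, and among the 1904 probes that were at least as bright as it in wild-type, itself included, it stood 5th. The place among all probes moved with the processing, from 178th to 1780th over the 24 alternative settings. The last was with the processed signal of the Agilent Feature Extraction software scaled to its 75th percentile.

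The brightness of the spot was also near the top of the array in both groups. Brightness depends on each probe's sequence as well as on its transcript, so these ranks order spots and not amounts of RNA. By normalised intensity, *bnip3lb* stood 1857th, 2038th and 1891st in wild-type replicates 2, 3 and 4. In *vhl* mutant replicates 1, 3 and 4 it stood 627th, 527th and 522nd. By group mean, it moved from 1904th in wild-type (top 4.64%) to 550th in *vhl* mutants (top 1.34%). Among the 687 probes called higher its wild-type level was the 28th highest (top 4.08%), a place close to that among all probes.

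Probes of similar brightness give the spread that a spot at this level usually had. Within 0.5 log2 units of *bnip3lb* in mean wild-type intensity there were 1422 probes, itself included, with a median log2 fold change of -0.16 and a range of -4.59 to 2.61. Of these, 29 were called higher and 67 lower, and the change of *bnip3lb* was the 3rd highest. Its SD over the wild-type arrays, 0.07, was below the median of these probes (0.10). Its SD over the *vhl* mutant arrays, 0.21, was above theirs (0.17), the 593rd highest of the 1422.

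**Figure D2:**
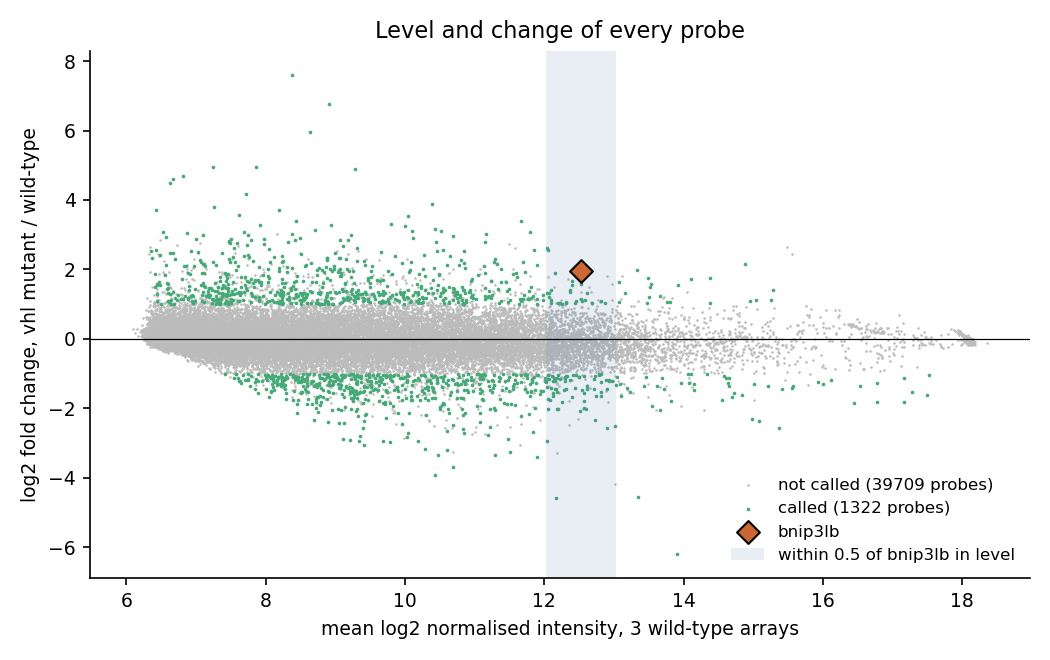
Mean log2 intensity in wild-type (horizontal) against log2 fold change of *vhl* mutant over wild-type (vertical) for all 41031 probes. Green points are the 1322 called probes, grey points were not called, the shaded band holds the 1422 probes within 0.5 of *bnip3lb* in level, and the diamond marks *bnip3lb* at 12.53 and 1.95, the 3rd highest in the band.

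The spots printed around *bnip3lb* did not share its increase. In the 3 rows and 3 columns to each side lay 48 other zebrafish spots of 47 probes. Their median log2 fold change was 0.02, 0 of the 47 probes were called higher and 1 was called lower, and the highest of their changes was 1.17.

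The other members of the BNIP3 family were sought by symbol. Only a minority of probes could be named here, 3159 of 41031. Of the 687 probes called higher, 404 had no symbol, so named probes were called higher more often than all probes (1.67%). That 1.67%, set beside the lists below, is therefore a low background for named genes. *bnip3* and *bnip3la* were not analysed here because no named probe carried their symbols. The remaining member, *bnip4*, was measured by 1 probe. Its log2 intensity was 10.59, 10.26 and 10.37 in wild-type replicates 2, 3 and 4, and 8.88, 9.70 and 9.55 in *vhl* mutant replicates 1, 3 and 4. These values lay in the opposite order to those of *bnip3lb*, with no overlap of the groups. Such separation was common, since 9203 of 41031 probes had every *vhl* mutant array below every wild-type array. The difference of *bnip4* did not pass the threshold (log2 fold change -1.03, SE 0.22, limma adjusted p = 0.0205).

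Of 30 other genes of mitophagy receptors and adaptors, 5 were measured, *bnip4* among them. Of these, 0 were called in either direction (against 1.67% of all probes higher and 1.55% lower). Their median log2 fold change was -0.21 against -0.0002 for all probes. The mitophagy receptor *bcl2l13* had 8.18, 8.09 and 8.15 in wild-type and 9.05, 8.97 and 8.71 in *vhl* mutants, a difference of 0.77 (adjusted p = 0.00417) that was under the 2-fold limit. The receptor *fkbp8* differed by -0.21, and *calcoco1a*, placed on this list as an adaptor, by 0.10. The phosphatase *pgam5*, known in mammals for activating the mitophagy receptor FUNDC1, differed by -0.30. Limma's adjusted p was 0.0754 for *fkbp8*, 0.703 for *calcoco1a* and 0.102 for *pgam5*. The increase of *bnip3lb* was larger than that of each of these 5 genes.

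Of 42 genes of autophagosome formation, 3 were measured and 1 was called higher (against 1.67% of all probes). The E2-like enzyme *atg10*, which conjugates ATG12 to ATG5, rose by 1.07 on the log2 scale (adjusted p = 0.00322; it was named through the study's table of changed genes), from 9.12 to 9.40 in wild-type to 10.19 to 10.58 in *vhl* mutants. The membrane protein *vmp1* differed by -0.71 (limma adjusted p = 0.00577), a decrease under the 2-fold limit. The phosphoinositide binder *wdr45b* differed by -0.99 (limma adjusted p = 0.0713), and neither was called. Without *vhl* mutant replicate 3, *atg10* was not called and 0 of these 3 were.

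Of 16 genes of mitochondrial fission and fusion, 3 were measured and 2 were called, in opposite directions. Of all probes, 1.67% were called higher and 1.55% lower. The fission adaptor *mief2* rose by 2.45 and the fission regulator *mtfp1* fell by 1.27 on the log2 scale (adjusted p = 0.00795 and 0.00700). The fusion gene *mfn2* was not well above background on any wild-type array. Both called genes were named through the study's table of changed genes, and without *vhl* mutant replicate 3 neither was called.

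BNIP3L also binds BCL2, and 7 of 22 genes of the BCL2 family were measured. Of these, 2 were called higher, against 1.67% of all probes, a share that named probes as a whole exceeded. The survival genes *mcl1b* and *bcl2a* were called higher, by 2.39 and 1.06 (adjusted p = 0.000641 and 0.00212). *mcl1b* moved from 10.60 to 10.69 in wild-type to 12.78 to 13.25 in *vhl* mutants, without overlap. The pro-apoptotic *bbc3* differed by 1.03 but missed the threshold (adjusted p = 0.0129), and the remaining 4 were not called. The median of the 7 was 0.77, the value of *bcl2l13*, which is also counted among the mitophagy genes above.

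The lysosome and the respiratory chain, where the cargo of mitophagy ends and what it carries, were read by few named probes. Of 50 lysosomal genes 7 were measured, with 0 called higher and 2 lower (against 1.67% and 1.55% of all probes). The 2 called lower were the proteases *ctsbb* (log2 fold change -3.18) and *lgmn* (-1.12). Of these 7, 3 were named through the study's table of changed genes, both called ones among them. Of 76 genes of oxidative phosphorylation 6 were measured. The cytochrome oxidase subunit *cox5b2* was called higher, by 2.14. Cytochrome c *cycsb*, the complex III subunit *uqcrq* and the ATP synthase subunit *atp5pf* were called lower. The log2 fold change was -1.76 for *cycsb* and -1.30 for *uqcrq*, and that of *atp5pf* lay just past the 2-fold limit (adjusted p = 0.00821). The 4 called genes are the 4 of the 6 whose names came from that table, which leaves these counts dependent on the change. Without *vhl* mutant replicate 3, 1 of these 6 was called.

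Of 108 genes of the HIF pathway and its known targets, 39 were measured, with 23 called higher (against 1.67% of all probes), 1 lower and a median log2 fold change of 1.44. Among the 18 named through RefSeq alone, 5 were called higher and the median was 0.56. The collagen hydroxylase *p4ha1b* rose by 4.90, the glycolytic regulator *pfkfb3* by 3.89 and lactate dehydrogenase *ldha* by 1.74, while the enolase *eno1b* fell by 1.81 on the log2 scale. In 14 of the 39 the increase was larger than that of *bnip3lb*. Names taken from the study's own probe tables lean to genes it listed as changed, and 19 of the 39 came from its table of changed genes, so these counts are not independent of the change.

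**Figure D3:**
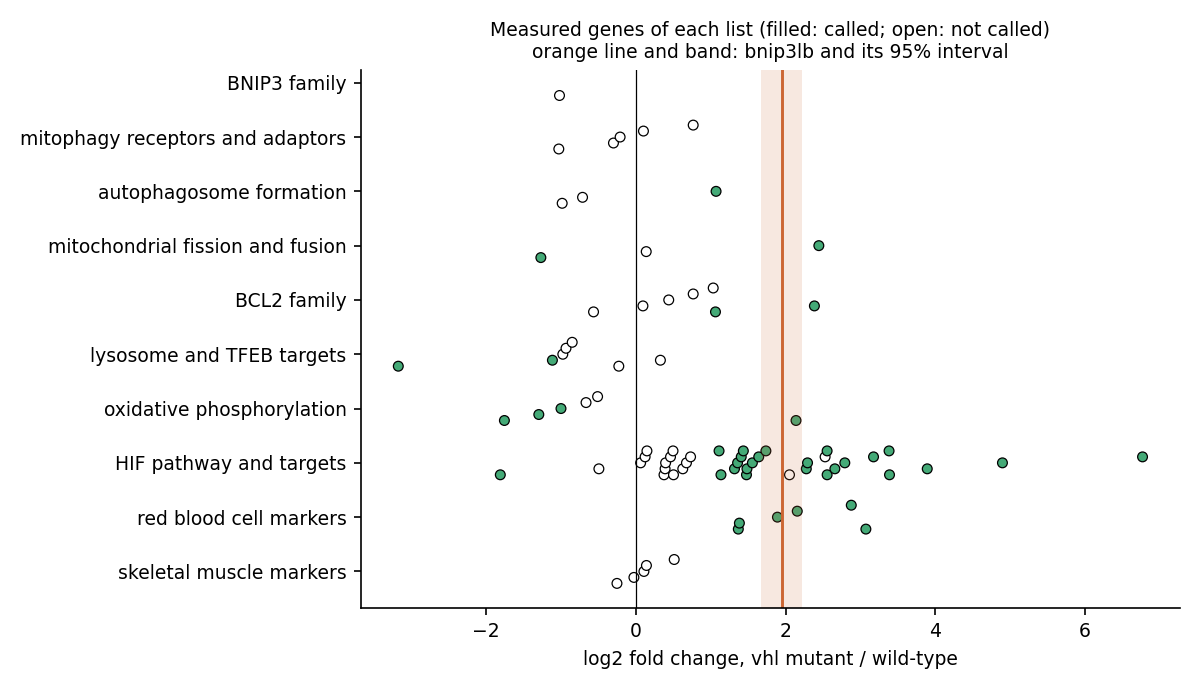
Log2 fold change, *vhl* mutant over wild-type, of each measured gene of 10 lists (1 point a gene; filled, called; open, not called; vertical spread within a list only separates points). The orange line and band are *bnip3lb*, 1.95, and its 95% interval, 1.67 to 2.22; 0 of 5 genes of the mitophagy list and 14 of 39 of the HIF list lie to its right.

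NIX acts in maturing red blood cells, and markers of these cells were read beside *bnip3lb*. Of 37 markers 6 were measured and 6 were called higher (against 1.67% of all probes), with a median log2 fold change of 2.02. However, 5 of the 6 were named through the study's table of changed genes. Embryonic globins *hbae1.1* and *hbbe2* rose by 3.07 and 2.16, the adult globin *hbba2* by 1.89 and the first enzyme of haem synthesis in red cells, *alas2*, by 2.88. The membrane skeleton gene *sptb* rose by 1.37 and the haem synthesis gene *urod* by 1.38. Their summed intensity was 34353 to 35793 in wild-type and 147158 to 221318 in *vhl* mutants, and none of the 6 was below background in either group. The part of red blood cells in the result for *bnip3lb* was not tested. Without *vhl* mutant replicate 3, 4 of the 6 were called.

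Markers of other cell types differed in direction. Of 5 skeletal muscle markers measured 0 were called, and their summed intensity overlapped (496812 to 508711 in wild-type, 468358 to 511010 in *vhl* mutants). The summed intensities of lens and liver markers also overlapped, although sums follow the brightest probes. Of these, 1 of 6 lens markers and 2 of 7 liver markers were called higher, against 1.67% of all probes (medians 0.13 and 0.11). Of the 7 liver markers 3 were named through the study's table of changed genes, both called ones among them. Summed photoreceptor markers were lower in *vhl* mutants (log2 ratio -1.40), as were summed neuron markers (-1.22). Of the 13 photoreceptor markers 8 were called lower, against 1.55% of all probes, and 5 of these 8 were named through that table. Of the 7 neuron markers 1 was called lower, their median log2 fold change was -0.41, and 2 had a positive one, so the sum was further from 0 than most members. No marker of white blood cells had a named probe, and the part of these cell types in the result was not tested.

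Genes whose pattern over the 6 arrays was most like that of *bnip3lb* were ranked by the root mean square difference (RMS) of log2 intensities, after each probe's own mean over the arrays was taken off. The 24201 other probes that were well above background and had a value on all 6 arrays were compared, 2485 of them with a symbol. Among those with a symbol the nearest was *fbxl5*, a ubiquitin ligase subunit that senses iron and oxygen, with an RMS of 0.0614. Its log2 intensity was 12.27, 12.11 and 12.10 in wild-type and 13.85, 14.16 and 14.12 in *vhl* mutants. As with *bnip3lb*, replicate 1 was the lowest of the *vhl* mutants and the wild-type arrays lay close together, which the choice by a small RMS favours.

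The glycolytic pyruvate kinase *pkma* came next, with an RMS of 0.0661 and a log2 fold change of 1.98, followed by *sdad1* (0.0772), *rhpn2* (0.0896), *dhdh.1* (0.101) and the selenoprotein *selenon* (0.104). The remaining 4 were *cry4* (0.118), *zgc:171704* (0.128), *ldha* (0.129) and the myoglobin gene *mb* (0.135). All 10 were called higher, with log2 fold changes of 1.74 to 2.09, as a small RMS requires. All 10 were in the study's table of changed genes and *selenon* alone was named through RefSeq. Fewer than 3 unnamed probes lay nearer than any of them. Pearson's r over the 6 arrays was 0.994 or more for these 10, and over 0.99 for 267 of the 24201 probes. With 6 arrays in 2 groups such a coefficient mostly reads the difference between the groups, so these are descriptions with no test.

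**Figure D4:**
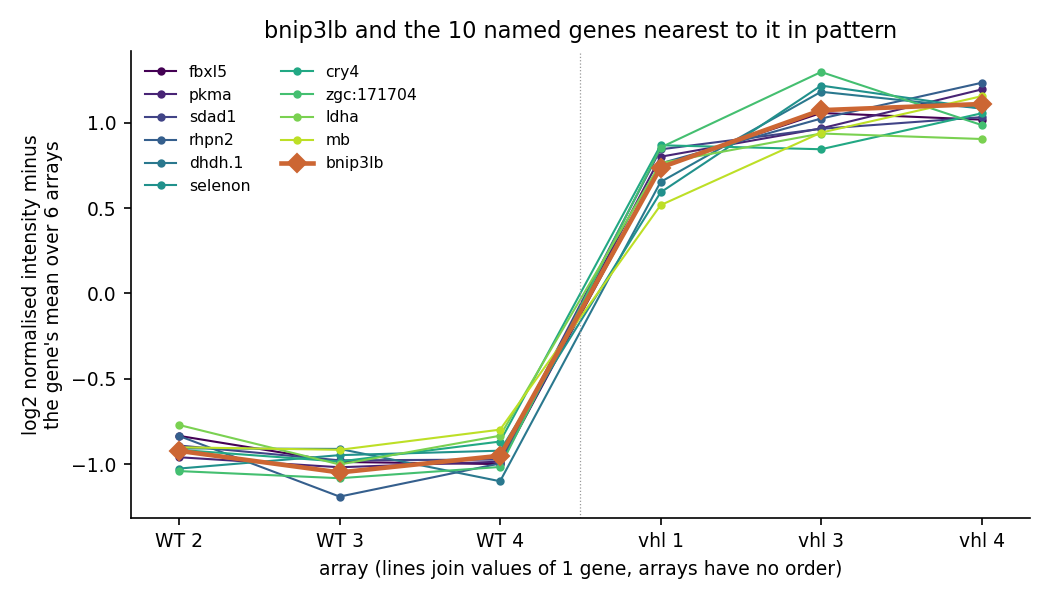
Log2 normalised intensity minus each gene's own mean over the 6 arrays, for *bnip3lb* (thick orange line) and the 10 named genes with the smallest RMS difference from it. Lines only join the values of 1 gene, since arrays have no order. All 11 lines are low in wild-type (WT) and high in *vhl* mutants. Like *bnip3lb*, 9 of the 10 genes have their lowest *vhl* mutant value on replicate 1, which the choice by RMS favours.

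The array-wide state of the hybridisations bears on every value above. Between 67.2% and 72.4% of zebrafish spots were well above background on an array, and arrays correlated at r = 0.993 to 0.995 within wild-type, 0.979 to 0.989 within *vhl* mutants and 0.961 to 0.972 across groups, over all probes. On *vhl* mutant replicate 3, 2 spots had an extreme local background, up to 14940.5 against an array median of 21. Leaving out those 2 spots before correction left the log2 fold change of *bnip3lb* at 1.96, and leaving out that array gave 1.90 (adjusted p = 0.0035), so the increase did not rest on it.

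**Figure D5:**
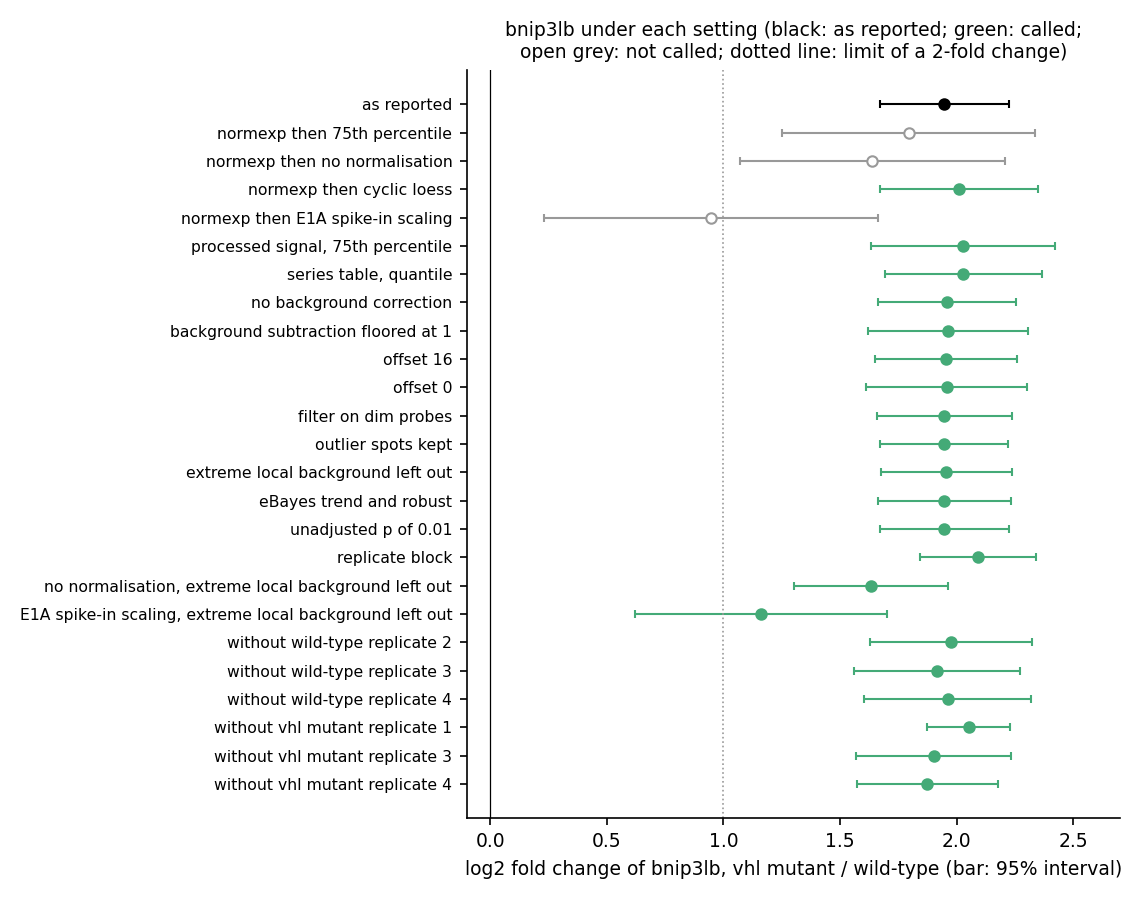
Log2 fold change of *bnip3lb* with its 95% interval as reported (black) and under 24 other settings of correction, scaling, filtering and samples (green, called; open grey, not called; dotted line, a 2-fold change). All 25 intervals lie above 0, and the estimates run from 0.95 with spike-in scaling to 2.09 with a replicate block. The replicate block estimate comes only from replicates 3 and 4 of each group, and the unadjusted p setting repeats the reported fit. Both spike-in intervals rest on an SE shared between genes, not on the spread of *bnip3lb* alone.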

How the data were processed

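RNA of 6 pools of 30 embryos was labelled with Cy3 by the authors, from 400 ng of total RNA. The authors read the spots with Agilent Feature Extraction 10.7.3.1. The values used are deposited intensities (per spot, the median brightness of its pixels and of the local background around it), which the authors had not corrected or normalised. Feature Extraction's own processed signal, a deposited intensity with background already subtracted, served as an alternative, and the deposited series table equals it to 3 digits (largest difference 0.496%; column medians 73.1 to 85.8), with 0 columns of no sample. The other deposited columns used, spot flags, are codes with no unit. The submitters' processing notes name limma 3.24.10.

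The study's methods (limma, normexp, quantile normalisation, averaging of replicate spots) were followed in limma 3.58.1 and R 4.3.3. Normexp, with an offset of 50 that the methods do not state, was fitted on all 45220 spots. Outlier-flagged spots (15 to 63 an array) were set missing, control spots (1264 positive, 153 negative) were removed, and quantile normalisation and averaging of same-named spots then turned 43803 spots into 41031 probes. Groups, taken from the titles, were compared with lmFit and eBayes with no covariate, with Benjamini-Hochberg adjustment across the 41031 probes. The methods limit p to 0.01 without saying whether it was adjusted; the adjusted p was used. The offset understates changes of dim probes. Arrays give no count of molecules, so the number of arrays limits the precision. The fit alone was tested on simulated data, without the steps of background correction and normalisation.

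RefSeq accessions named 1752 probes (GRCz12tu table, names and chromosomes only), and the study's own pairing of probe and symbol named 1407 more; no other value of the study was used. A gene with several probes was read by the brightest. The members and gene lists were chosen with earlier results of these data known. Named genes were *bnip3lb*, measured members of the BNIP3 family list, in each other list the members called and the 3 closest to *bnip3lb* in level, and the 10 named probes most like it in pattern; some of these are given only in counts, and *bcl2l13*, *calcoco1a* and *bbc3* were named after their values were seen. Lists were described by counts and medians, with no test. Alternatives covered the signal column, background correction, offset, scaling, filters, variance model, call rule, a replicate block and each array left out; those that combine scaling or list counts with the array of extreme background spots were chosen after seeing the data.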

Additional observations from a re-analysis of the deposited data

Results flagged for a closer look

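The E1A spike-in probes, which read control RNA added to each sample and which no comparison of the report tests, were brighter in *vhl* mutants by 0.48 log2 units when the same correction and quantile normalisation were run once more with control spots kept. Over 10 probes, wild-type arrays averaged 11.06 ± 0.22 (SD, n = 3) and *vhl* mutant arrays 11.54 ± 0.21 (SD, n = 3), with the lowest *vhl* mutant array at 11.38 and the highest wild-type array at 11.31 (exact two-sided permutation test, p = 0.1, the smallest possible). The difference of *bnip3lb* as reported, from the run without control spots, exceeded that of the spike-in probes by 1.47. That gap spans 2 normalisations and is not a spike-scaled change, which was 0.95 with E1A scaling after normexp. The cause of the spike-in difference was not tested.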

How the results depend on the processing

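The log2 fold change of *bnip3lb* was above 0 under all 24 alternatives, from 0.95 to 2.09. An unadjusted p limit used the same fit under a looser rule, so it could not lose the call. Filtering dim probes and changing the variance model left the estimate at 1.95 by construction. The call was kept under 21 alternatives, which include both scaling settings chosen after seeing the data. It was lost under 3 scalings after normexp, all with limma: the 75th percentile (1.79, adjusted p = 0.0381), no normalisation (1.64, adjusted p = 0.0808) and E1A spike-in scaling (0.95, adjusted p = 0.0490). These also moved the count of called probes, 1322 as reported, to 9, 3 and 5076, and the median log2 fold change of all probes to 0.71, 0.56 and -0.13. Of the 5076 under spike-in scaling, 250 were called higher and 4826 lower. With the 2 spots of extreme background left out, a setting chosen after seeing the data, no normalisation gave 1.63 (adjusted p = 0.000788; 2073 probes called, 513 higher and 1560 lower) and spike-in scaling 1.16 (adjusted p = 0.000208; 7118 called, 359 higher and 6759 lower; median of all probes -0.49). Under both spike-in settings limma gave *bnip3lb* and *calcoco1a* the same SE (0.37, and 0.28 with those spots left out). The adjusted p and counts of called probes under these settings thus do not reflect each probe's own spread. The processed signal scaled to its 75th percentile gave 2.03 with 2622 probes called (1935 higher and 687 lower) and a median of 0.33, and *bnip3lb* then stood 1780th in change. Leaving out 1 array gave *bnip3lb* 1.88 to 2.05 (adjusted p up to 0.00744) and 379 to 2136 called probes, with 615, 379 and 475 without wild-type replicates 2, 3 and 4 and 2136 without *vhl* mutant replicate 1. With the replicate block, a term for replicate number, *bnip3lb* had 2.09 (limma adjusted p = 0.00899) and 311 probes were called. Numbers 1 and 2 each occur in 1 group only, so that estimate came only from the arrays numbered 3 and 4. Arrays of the same number (3 and 4) did not deviate together (correlations 0.0056 and 0.0133). The number equals the array's position on its slide on 6 of 6 arrays. Over 39 other named genes and the same alternatives, 732 values kept direction and call, 182 lost the call, 18 gained one and 4 changed sign, all of *calcoco1a* (-0.64 with spike-in scaling, -0.60 with it and the extreme spots left out, -0.13 with no normalisation and those spots left out, -0.0301 to 0.25 with 1 array left out, the lowest without *vhl* mutant replicate 3). The causes of these changes were not tested.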
